A study of Owenia fusiformis with 14 samples.

Results

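In blastulae of the annelid *Owenia fusiformis* collected at 6 h post fertilisation (hpf), 21 of the 27040 genes listed in all 14 libraries were at their lowest, by a wide margin, in embryos treated with recombinant Activin A (rActivin A). A gene was taken when its highest level in the 2 rActivin A libraries was at most the lowest level in the other 12 libraries divided by 2, and when that lowest level was at least 5 CPM. CPM is the estimated read count of a gene, summed over its transcripts, per 1000000 counts of its library. The rule also left out *chordin*, *bmp2/4* and any gene whose highest SB431542 level was at most its lowest 0.4% DMSO level divided by 1.5, but these clauses removed 0 genes. The 21 genes were therefore chosen on the measured values of all 14 libraries. Their low level after rActivin A is described below, and no conclusion is drawn from a test of it.

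Whole embryos were sequenced as 2 replicate mRNA libraries in each of 7 conditions, and the study set each treatment against its own control. rActivin A (75 ng/µl) and recombinant zebrafish BMP4 (rBMP4, 1000 ng/µl) were given from 4 to 6 hpf and compared with a mock treatment over the same hours. DMH1 (20 µM) was given from 4 to 6 hpf beside 0.2% DMSO, the solvent, and SB431542 (40 µM) from 3 to 6 hpf beside 0.4% DMSO. Other tables of the study give both protein doses per ml, so their unit is uncertain. The sample labels spell the inhibitor SB435421, while the treatment protocol and the methods name SB431542, the name used here. Nothing in the labels says that the 2 replicates of a condition came from separate cultures, so p-values measure the spread between these libraries, which may be technical. The embryos were taken whole and no cell type was isolated. In such bulk libraries fewer cells of a type and less RNA per cell cannot be told apart.

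Activin and Nodal ligands belong to the TGF-β superfamily and act through paired type I and type II serine/threonine kinase receptors, which phosphorylate Smad2/3. SB431542 blocks the type I receptors of this branch. BMP ligands act through related receptors that phosphorylate Smad1/5/8, DMH1 blocks BMP type I receptors, and Chordin is a secreted protein that binds BMPs outside the cell. Both branches are widely used in early animal embryos to set up the body axes and germ layers. The 21 genes carry no names in the files or in the reference table used here, so they are given by identifier and nothing is said of their function.

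The rActivin A libraries held 16955201 and 9416790 estimated counts, against 16316525 to 59916462 in the other libraries. They also differed from each other in fragment length, which the effective transcript lengths put at 361.3 bases in replicate 1 and 313.5 bases in replicate 2, against 348.8 to 371.7 bases in the libraries other than replicate 2. Whether this difference has a part in the low values was not tested.

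Of the 27040 genes, 9995 had a lowest CPM of at least 5 in the other 12 libraries, so the 21 genes are 0.21% of those that could have been taken. In 739 of the 9995 genes, or 7.39%, the highest rActivin A level lay below every other library, by any margin. Applied to each condition in turn, the first condition of the rule took 21 genes for rActivin A, 13 for SB431542, 7 for DMH1, 1 for 0.2% DMSO and 0 for rBMP4, mock and 0.4% DMSO. The number taken depends on the libraries. Without rActivin A replicate 1 it was 46 and without rActivin A replicate 2 it was 37. Each of these sets held the 21 genes, which the rule makes certain, since leaving out a library can only loosen its first condition. Without the 4 libraries of DMH1 and 0.2% DMSO, an alternative added after seeing the data, it was 54.

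**Figure D1:**
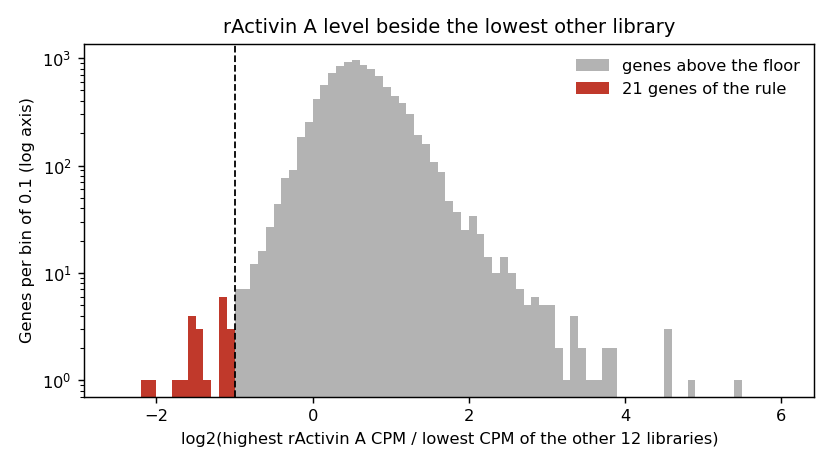
Histogram of the 9995 genes with a CPM of at least 5 in each of the other 12 libraries, by the log2 ratio of the highest rActivin A CPM to the lowest CPM of the other libraries (horizontal axis) and the number of genes per bin (vertical axis, log scale). The dashed line is the threshold of the rule, and the 21 genes in red to its left have ratios of 0.232 to 0.496.

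Across the 21 genes the ratio of the highest rActivin A CPM to the lowest other CPM had a median of 0.377. The lowest other library was thus 2.02 to 4.30 times as high as the highest rActivin A library, with a median of 2.66 times. Set against the median of the other 12 libraries, the mean rActivin A level was 2.69 to 15.9 times lower, with a median of 4.26 times. These values rest on 29 to 1552 estimated counts per gene in rActivin A replicate 1 and on 4 to 752 in replicate 2. In all 21 genes the upper limits of the exact 95% Poisson intervals of both rActivin A counts, which cover counting error only, lay below the lowest other library. In 11 of the 21 they also lay at or below that library divided by 2. The rule chose these counts for being low, and the lowest other library is taken without error, so nothing is read from these limits.

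OFUSG20718 had the smallest ratio, 0.232. It stood at 5.43 and 4.14 CPM in the rActivin A libraries, against 41.1 and 46.3 after rBMP4, 32.1 and 35.7 in mock, 52.0 and 54.3 after DMH1, 133 and 76.0 in 0.2% DMSO, 24.8 and 27.3 after SB431542 and 23.4 and 23.5 in 0.4% DMSO. The other 12 libraries spread over a 5.68-fold range, and the lowest of them was 4.30 times the higher rActivin A library.

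OFUSG14673 (ratio 0.250) had 2.71 and 0.743 CPM with rActivin A, against 15.8 and 26.6 after rBMP4, 20.2 and 19.8 in mock, 10.9 and 13.4 after DMH1, 27.8 and 36.5 in 0.2% DMSO, 36.3 and 38.5 after SB431542 and 28.6 and 32.1 in 0.4% DMSO. In the rActivin A libraries these levels correspond to 46 and 7 estimated counts. OFUSG24475 (ratio 0.300) had 1.77 and 0.425 CPM with rActivin A, or 30 and 4 counts, against 9.08 and 8.72 after rBMP4, 11.4 and 10.6 in mock, 37.6 and 37.1 after DMH1, 5.90 and 9.90 in 0.2% DMSO, 23.4 and 26.1 after SB431542 and 27.7 and 24.9 in 0.4% DMSO. This gene had the widest spread among the other 12 libraries, 6.37-fold, and by the rule no rActivin A library overlapped with any of them. The 95% Poisson interval of its 4 counts runs from 0.116 to 1.09 CPM, and the lowest other library stood at 5.90.

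The next 7 genes by ratio were OFUSG16276, OFUSG05441, OFUSG19954, OFUSG00668, OFUSG12789, OFUSG01309 and OFUSG12368, with ratios of 0.322 to 0.375. OFUSG16276 had 1.71 and 2.23 CPM with rActivin A, and its other 12 libraries ran from 6.93 to 20.7 with a median of 12.2. OFUSG19954 had 2.12 and 1.17 CPM, with the others from 6.29 to 27.9 (median 11.9). OFUSG12789 had 2.18 and 1.70 CPM, with the others from 6.36 to 22.5 (median 8.79). The rActivin A levels of these 3 genes rest on 11 to 37 counts. OFUSG00668 had 4.98 and 2.97 CPM, against 14.7 to 28.3 in the others (median 20.9), and OFUSG01309 had 4.36 and 2.34 CPM, against 11.7 to 28.0 (median 22.2).

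**Figure D2:**
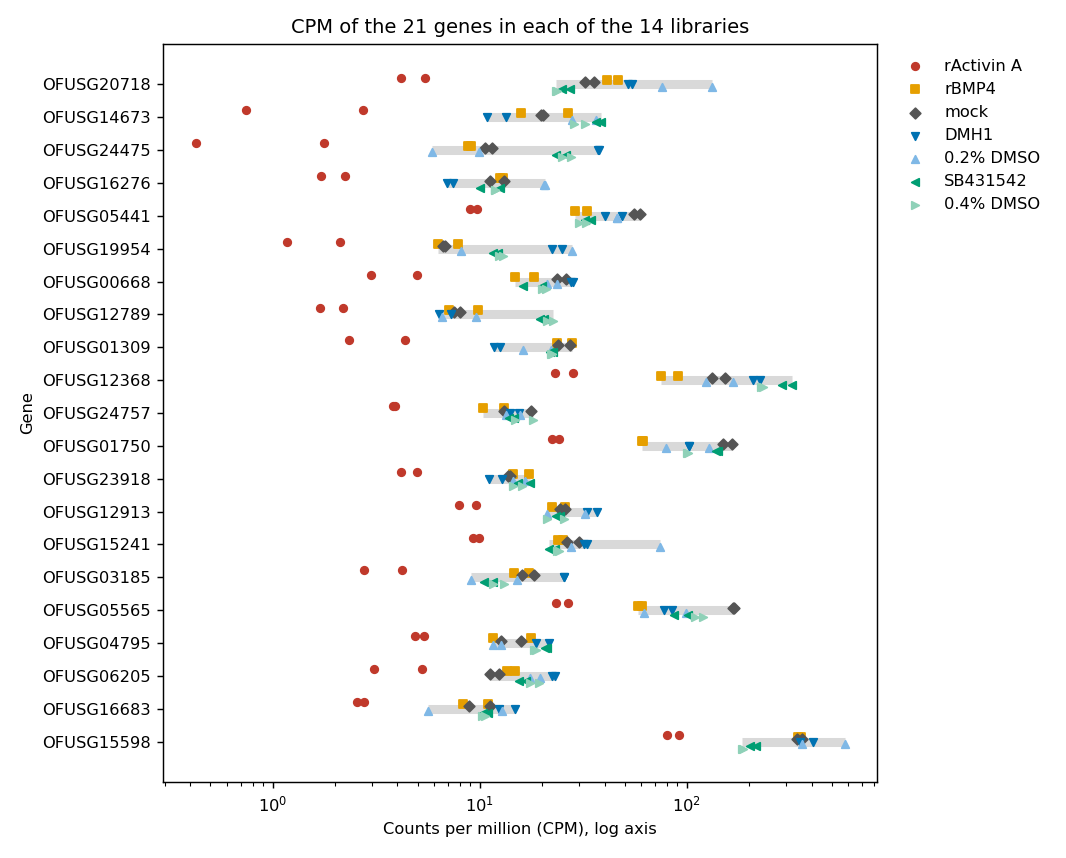
CPM of each of the 21 genes (rows, in order of the ratio used to choose them) in each of the 14 libraries (points, log axis). Colours and symbols mark the 7 conditions, the small vertical shifts only separate them, and the grey bars span the other 12 libraries. In every row the 2 red rActivin A points lie left of the grey bar, while the order of the other conditions differs from row to row.

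The most strongly expressed of the 21 genes, by TPM in mock embryos, a level scaled for transcript length, were OFUSG15598, OFUSG05565, OFUSG12368, OFUSG05441 and OFUSG01750. Their mean TPM was 66.1, 32.8, 29.8, 15.6 and 9.93 in that order with rActivin A, against 282, 233, 175, 102 and 69.8 in mock embryos. OFUSG15598 had 91.5 and 79.9 CPM with rActivin A, or 1552 and 752 counts. Its other libraries lay at 344 and 357 after rBMP4, 339 and 358 in mock, 406 and 352 after DMH1, 577 and 361 in 0.2% DMSO, 216 and 202 after SB431542 and 186 and 185 in 0.4% DMSO. It was the gene closest to the threshold (ratio 0.496), with 0.4% DMSO as its lowest other condition.

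Just inside the threshold lay OFUSG15598, OFUSG16683 (0.491) and OFUSG06205 (0.467). Just outside lay OFUSG04526 (0.504), OFUSG16411 (0.507) and OFUSG10522 (0.508). OFUSG04526 had 4.48 and 6.69 CPM with rActivin A and 13.3 to 25.6 CPM in the other libraries. OFUSG16683 had 2.77 and 2.55 CPM with rActivin A, against 5.64 to 14.7 CPM (median 10.7), and OFUSG06205 had 5.25 and 3.08 CPM, against 11.3 to 23.1 CPM (median 17.01).

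Between these and the 10 genes with the smallest ratios lay 8 genes with ratios of 0.377 to 0.466, among them OFUSG01750 and OFUSG05565. OFUSG24757 had 3.89 and 3.82 CPM with rActivin A, against 10.3 to 18.1 CPM in the other 12 libraries (median 14.3). OFUSG23918 had 4.95 and 4.14 CPM, against 11.1 to 17.4 CPM (median 14.5). The other 12 libraries of these genes spread over 1.75-fold and 1.57-fold ranges. The steps down to the higher rActivin A library were 2.66-fold and 2.24-fold, and the rule set every step at 2-fold or more. Over the 21 genes the median range was 2.81-fold and the median step 2.66-fold. OFUSG12913 had 7.96 and 9.56 CPM with rActivin A, against 20.99 to 36.6 CPM (median 25.01), and OFUSG15241 had 9.26 and 9.88 CPM, against 21.6 to 73.9 CPM (median 25.7). OFUSG03185 had 4.19 and 2.76 CPM with rActivin A, against 9.10 to 25.6 CPM (median 14.8), and OFUSG04795 had 5.37 and 4.88 CPM, against 11.5 to 21.5 CPM (median 18.0). In the last 4 genes the upper end of the range was set by DMH1 or 0.2% DMSO libraries.

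Against mock alone, the log2 fold changes of the 21 genes ran from -3.36 in OFUSG14673 to -1.46 in OFUSG06205, with a median of -2.26 and standard errors (SE) of 0.10 to 0.32. The median over all 20463 genes tested was -0.02. All 21 genes were called lower (edgeR's quasi-likelihood test, Benjamini-Hochberg adjusted p below 0.05), in a comparison where 21.7% of all genes tested were called lower and 40.8% were called in either direction. The rule used these libraries, so nothing is read from this count.

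The order of the other conditions differed between the 21 genes. By condition mean, the lowest of the other 6 conditions was rBMP4 for 6 genes, DMH1 for 5, 0.2% DMSO for 3, 0.4% DMSO for 3, SB431542 for 2 and mock for 2. The highest was DMH1 for 7 genes, 0.2% DMSO for 4, SB431542 for 4, mock for 3, 0.4% DMSO for 2 and rBMP4 for 1. Among the other 12 libraries, the ratio of highest to lowest library had a median of 2.81 over the 21 genes, beside 1.96 over the 9995 genes. OFUSG23918 varied least, 1.57-fold, between 11.1 CPM after DMH1 and 17.4 CPM after SB431542.

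A subset of the genes was also lower after rBMP4, the ligand of the other branch. Of the 21 genes, 4 fell after rBMP4 against mock and 0 rose. Of the 20463 genes tested, 1.44% were called lower, 1.20% higher and 2.64% in either direction. In this and the other comparisons, the genes tested include genes under the floor of 5 CPM that all 21 genes passed. The background is thus an unlike set, and the share called among the 9995 genes was not taken. The mock libraries serve in this comparison and in that of rActivin A, and the rule kept every rBMP4 library at no less than 2 times the rActivin A level. OFUSG05565 stood at 23.3 and 26.7 CPM with rActivin A, 60.6 and 57.8 with rBMP4 and 169 and 168 in mock. Its log2 fold change was -1.54 (SE 0.11, adjusted p = 4.08e-08) for rBMP4 against mock and -2.79 (SE 0.12) for rActivin A against mock. OFUSG01750 stood at 24.1 and 22.3 CPM with rActivin A, 61.4 and 60.6 with rBMP4 and 164 and 149 in mock, and its change after rBMP4 was -1.39 (SE 0.10, adjusted p = 4.42e-08). In both genes the rBMP4 libraries lay between those of rActivin A and mock, with no overlap. Both rBMP4 libraries lay below both mock libraries in 7 of the 21 genes, beside 15.2% of the 9995, and above both in 3, beside 25.1%.

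OFUSG05441 had 9.73 and 8.96 CPM with rActivin A, 32.8 and 28.8 with rBMP4 and 55.3 and 59.2 in mock, a log2 fold change of -0.92 after rBMP4 (SE 0.12, adjusted p = 0.000127). OFUSG12368 had 23.0 and 28.0 CPM with rActivin A, 90.5 and 74.8 with rBMP4 and 153 and 133 in mock, a change of -0.82 (SE 0.11, adjusted p = 0.000181). The same order of conditions, rActivin A below rBMP4 below mock, held library by library in both, though the rule fixed rActivin A as lowest. These 4 calls held when each rBMP4 or mock library was left out, and 2 of them, OFUSG05565 and OFUSG01750, had a log2 fold change below -1. OFUSG00668 had 18.2 and 14.7 CPM with rBMP4 and 26.0 and 23.5 in mock (-0.62, adjusted p = 0.104) and did not pass the test. The other 16 genes had log2 fold changes between -0.41 and 0.34 for rBMP4, and the median of all 21 was -0.09, beside 0.00 over all genes tested.

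**Figure D3:**
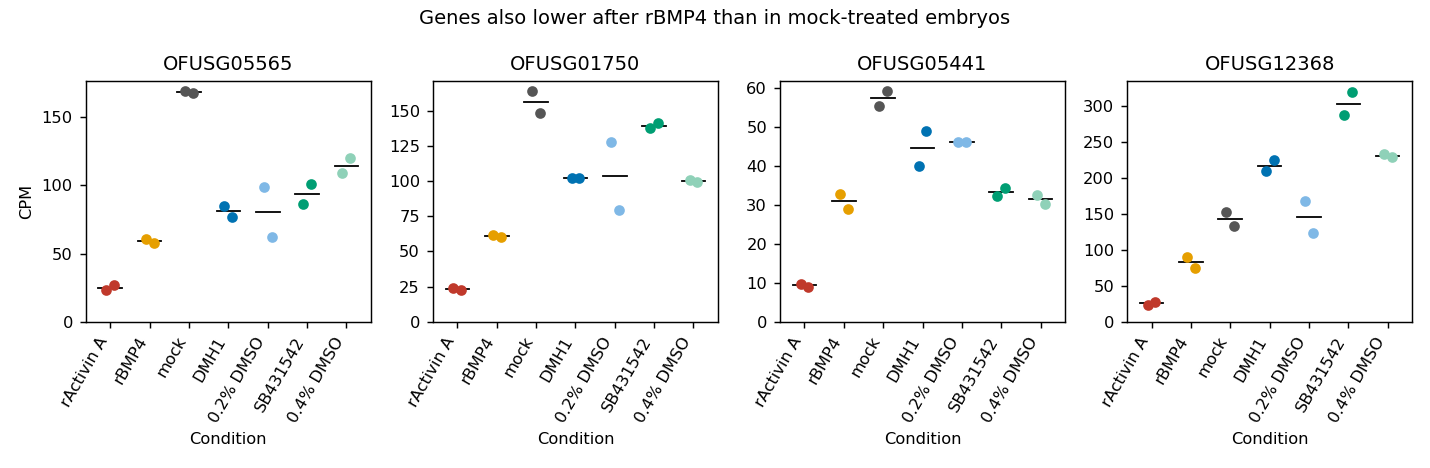
CPM of the 4 genes that fell after rBMP4, in each library (points) and as condition means (lines). In each panel the rActivin A points are lowest, as the rule requires, and the rBMP4 points lie above them and below mock. The DMSO controls of OFUSG05441 lie well under its mock libraries, at 30.2 to 46.1 CPM.

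The rBMP4 levels of these 4 genes can also be set beside the other control groups. OFUSG05441 had 32.8 and 28.8 CPM with rBMP4, which overlapped with 32.4 and 30.2 CPM in 0.4% DMSO. In OFUSG05565, OFUSG01750 and OFUSG12368 both rBMP4 libraries lay under all 6 control libraries. The lowest control library of each was 0.2% DMSO replicate 2, at 62.0, 79.6 and 123 CPM in that order, so the margin was narrow in OFUSG05565, whose higher rBMP4 library had 60.6 CPM.

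The 4 libraries of DMH1 and 0.2% DMSO were among those the rule used, and a library of these conditions was the lowest of the other 12 in 10 of the 21 genes (5 each). In the fit of these 4 libraries 7 of the 21 genes were called, 4 higher and 3 lower, in a comparison where 12.9% of 20695 genes were called, 5.97% higher and 6.91% lower. OFUSG24475 rose to 37.6 and 37.1 CPM after DMH1, against 5.90 and 9.90 CPM in 0.2% DMSO, a log2 fold change of 2.27 (SE 0.24, adjusted p = 0.00838). OFUSG03185 had 25.5 and 25.6 CPM after DMH1, against 15.1 and 9.10 CPM in 0.2% DMSO (1.11, SE 0.24, adjusted p = 0.0314). OFUSG04795 and OFUSG12368 rose by less, with log2 fold changes of 0.76 and 0.61.

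The 3 genes that fell after DMH1 were OFUSG16276, OFUSG14673 and OFUSG20718. OFUSG16276 had 6.93 and 7.41 CPM after DMH1, against 20.5 and 20.7 CPM in 0.2% DMSO (-1.49, SE 0.18, adjusted p = 0.0101). OFUSG14673 had 10.9 and 13.4 CPM after DMH1, against 27.8 and 36.5 CPM (-1.38, SE 0.20, adjusted p = 0.0125). OFUSG20718 had 52.0 and 54.3 CPM after DMH1, against 133 and 76.0 CPM (-0.94, SE 0.24, adjusted p = 0.0467). The groups do not overlap in these 3 genes, but such separation was common here: both DMH1 libraries lay below both of 0.2% DMSO in 5 of the 21 genes, beside 41.6% of the 9995, and above both in 7, beside 27.7%. None of the 7 calls stood with a single DMH1 library: leaving out either one gave 0 calls, with 7 and 6 genes at an unadjusted p below 0.05 without replicates 1 and 2, while leaving out 0.2% DMSO replicate 1 or 2 gave 11 and 15 calls. All 7 fold changes kept their direction in both cases. Without replicates 1 and 2 of DMH1 they were 2.28 and 2.28 in OFUSG24475 and -1.42 and -1.54 in OFUSG16276. DESeq2 called the same 7 genes. The DMH1 libraries held 59916462 and 51004775 counts, against 19313165 and 22730006 in 0.2% DMSO, and the part of this difference in the calls was not tested.

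The replicates of 0.2% DMSO were also far apart for several of these genes. The median absolute log2 difference between them was 0.54 over the 21 genes, beside 0.20 over the 9995 genes, whereas between the mock replicates it was 0.14 and 0.11. OFUSG15241 had 73.9 and 27.5 CPM in 0.2% DMSO, OFUSG19954 had 8.08 and 27.9, and OFUSG16683 had 5.64 and 12.8. In OFUSG15241 replicate 1 was the high one and in OFUSG19954 and OFUSG16683 replicate 2, and none of these 3 genes was called after DMH1.

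SB431542, the inhibitor on the Activin/Nodal branch, was given in the opposite sense to rActivin A. Of the 21 genes 1 was called, OFUSG01750, where 1.36% of genes tested were called, 0.518% higher and 0.845% lower. It had 138 and 141 CPM after SB431542, against 101 and 99.7 CPM in 0.4% DMSO, a log2 fold change of 0.47 (SE 0.10, adjusted p = 0.0161). The call was lost when any of the 4 libraries compared was left out, with adjusted p of 0.0910 to 0.291. OFUSG12368 was at 288 and 321 CPM after SB431542, against 234 and 229 CPM in 0.4% DMSO (0.39, adjusted p = 0.132), which did not pass the test. The other 19 genes had log2 fold changes between -0.29 and 0.30, and the median over the 21 was 0.00. A fall after SB431542 by a factor of 1.5 or more with no overlap was barred by the rule.

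**Figure D4:**
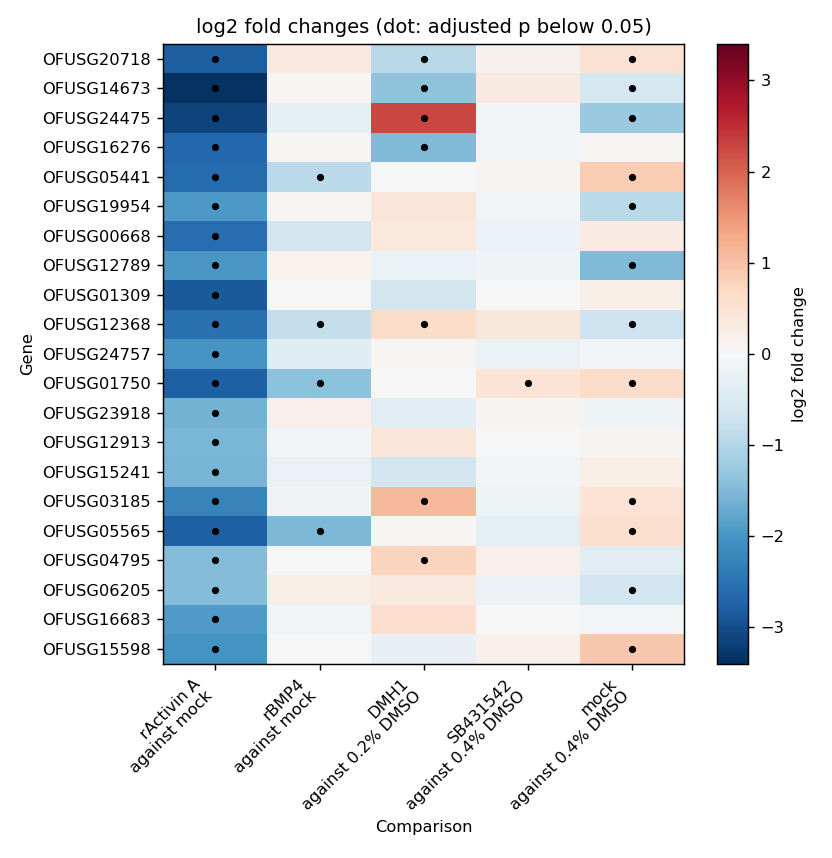
log2 fold changes of the 21 genes (rows, in order of the ratio) in 5 comparisons (columns, first-named condition over second), with blue for lower and red for higher values and a dot for an adjusted p below 0.05. The first column, used to choose the genes, is blue throughout with 21 dots, and the others hold 4, 7, 1 and 12 dots.

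Mock and 0.4% DMSO are both controls but differ in solvent and in the hour at which treatment began. Of the 21 genes 12 were called between them, 6 higher in mock and 6 lower, in a comparison where 46.1% of the genes tested were called, 23.6% higher and 22.5% lower. OFUSG12789 had 7.46 and 7.99 CPM in mock, against 22.5 and 21.02 CPM in 0.4% DMSO (-1.50, SE 0.18, adjusted p = 4.39e-06). OFUSG24475 had 11.4 and 10.6 CPM in mock, against 27.7 and 24.9 CPM (-1.26, SE 0.21, adjusted p = 8.91e-05). In both genes the rBMP4 libraries were near mock and the SB431542 libraries near 0.4% DMSO. OFUSG15598 (0.90) and OFUSG05441 (0.86) were the genes furthest the other way. The share of the 21 genes called was 57.1%, near the background.

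The 21 genes were also described by length, level and isoforms. The main transcript had a median of 1558 bases (744 to 6124), beside 2097 bases over the 9995 genes, and mean TPM in mock had a median of 22.0 beside 26.9. More than 1 transcript was listed for 2 of the 21 genes (9.52%), beside 18.6% of the 9995. In OFUSG24475 the second transcript held at most 0.764 CPM in any library. In rActivin A replicates 1 and 2 its transcript 1 had 1.77 and 0 CPM and its transcript 2 had 0 and 0.425 CPM. In OFUSG23918 the transcripts also differed between the rActivin A libraries. Transcript 1 had 4.95 and 0.182 CPM and transcript 2 had 0 and 3.96 CPM, while the gene as a whole had 4.95 and 4.14 CPM. Kallisto divides reads shared by isoforms, so the split is less certain than the sum.

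The 2 rActivin A libraries were not equally low. In 16 of the 21 genes (76.2%) replicate 2 was below replicate 1, beside 46.9% of the 9995 genes, and the median log2 difference was -0.20 beside 0.02. The largest gaps were in OFUSG24475 (-1.91), OFUSG14673 (-1.78) and OFUSG01309 (-0.88), where replicate 2 held 4, 7 and 22 counts. Replicate 2 is the smaller library and the one with shorter fragments, and the part of either in these gaps was not tested. With replicate 2 left out, the log2 fold changes against mock of these 3 genes were -2.63, -2.87 and -2.54, and without replicate 1 they were -4.75, -4.81 and -3.52, beside -3.14, -3.36 and -2.86 with both. The size of the fall in these genes thus depends on the library used.

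Among the genes of the BMP branch, taken as a list of 6 with known names, none met the rule. *chordin* (OFUSG13105) came nearest, with a ratio of 0.584. It had 227 and 220 CPM with rActivin A, 437 and 388 with rBMP4 and 895 and 898 in mock, the same order as in the 4 genes above, and fell after rBMP4 by 1.15 on the log2 scale (SE 0.09, adjusted p = 1.04e-07). *bmp2/4* (OFUSG12159) had the opposite order of the treatments, with 31.0 and 32.9 CPM with rActivin A, 22.1 and 17.2 with rBMP4 and 78.1 in both mock libraries. Over the 6 genes, 5 were called for rActivin A against mock, with 4 lower and *bmpr2* (a type II receptor gene) higher, where 40.8% of all genes tested were called. For rBMP4 against mock 4 were called, 2 lower and 2 higher, where 2.64% of all genes were called. The 2 that rose after rBMP4 were *bmpr2* and *smad1/5/8*, the gene of the transducer, but the call of *smad1/5/8* (log2 fold change 0.39) was lost when any 1 of the 4 rBMP4 and mock libraries was left out and in the fit of all 14 libraries, which left 3 calls. Between the controls 4 of the 6 genes were called, all higher in mock than in 0.4% DMSO, among them *chordin* (0.72) and *bmpr2* (0.63), where 46.1% of all genes were called. DMH1 gave 1 call (*bmpr2*, lower), where 12.9% of all genes were called, and SB431542 gave 0 by edgeR and 1 by DESeq2, with 3 genes at an unadjusted p below 0.05. Without mock replicate 1 the rActivin A count was 3, and the DMH1 count was 0 without either DMH1 library and 3 and 2 without replicates 1 and 2 of 0.2% DMSO. Without 0.4% DMSO replicate 1 the SB431542 count was 1.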

How the data were processed

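The authors prepared strand-specific mRNA libraries, trimmed the reads and quantified annotated *O. fusiformis* transcripts with Kallisto (version 0.46.2). The deposited estimated counts per transcript are not normalized. The deposited TPM values are scaled for length and were used here only for levels, never in a test. The strand setting was not given in the sources used here. DESeq2 (version 1.26.0) is named in the submitters' processing notes.

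Estimated counts of all transcripts listed for a library were summed per gene (identifier before the dot), and the 27040 genes found in all 14 libraries were kept. Transcript and TPM values were taken from the 31977 transcripts found in all 14. CPM was taken over the total of each file. For tests, sums were rounded to whole numbers, filtered with filterByExpr of edgeR (version 4.0.16, R version 4.3.3), scaled with TMM and tested with the quasi-likelihood test, with Benjamini-Hochberg adjustment over all genes tested and a call at an adjusted p below 0.05. A joint fit held the 10 libraries of rActivin A, rBMP4, mock, SB431542 and 0.4% DMSO (5 residual degrees of freedom) and a separate fit the 4 of DMH1 and 0.2% DMSO (2 residual degrees of freedom). SE is the size of the log2 fold change over the square root of the F statistic. On simulated counts with 200 genes changed by a factor of 4, 200 were recovered in each comparison, with 5 to 13 false calls. The simulated counts followed the fitted dispersion trend only, so uneven replicates such as those of 0.2% DMSO are not in them. They check the procedure, not its error rate on these data. Alternatives were DESeq2 (version 1.42.0), its size factors in edgeR, no filter, fits of all 14 or of 4 libraries, a fold minimum, a replicate block, each library left out, and other thresholds of the rule. Genes were named by ratio (the 10 smallest), mock TPM (the 5 highest), calls, nearness to the threshold, difference between the rActivin A libraries and isoform number, with 6 BMP pathway genes.

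The genes, lists and tests were chosen with earlier results of these data known. No identifier matched the RefSeq table used here (0 matches), so no sequence is shown. Between 1.31% and 3.65% of genes had equal rounded counts in both replicates of a condition, so no pair of replicates holds the same counts.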

Additional observations from a re-analysis of the deposited data

How the results depend on the processing

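The rule took 20 genes with library sizes scaled by TMM (OFUSG16683 was lost), 15 with a floor of 10 CPM and 4 with a divisor of 3. Leaving out 1 library at a time gave 21 to 46 genes. Leaving out the DMH1 and 0.2% DMSO libraries, chosen after seeing the data, gave 54. The first condition of the rule can only loosen when libraries are left out, so these counts do not measure stability. Calls with a log2 fold change of at least 1 numbered 2 for rBMP4 against mock, 4 for DMH1 against 0.2% DMSO, 0 for SB431542 against 0.4% DMSO (3 at an unadjusted p below 0.05) and 2 for mock against 0.4% DMSO. For the 6 BMP pathway genes these counts were 2 for rActivin A against mock, 2 for rBMP4 and 0 for DMH1 and for mock against 0.4% DMSO. SB431542 against 0.4% DMSO gave 2 genes without the filter and 0 in the fit of all 14 libraries, and for the BMP pathway genes 3 without the filter and 1 by DESeq2. Leaving out single libraries gave 21 of the 21 genes for rActivin A, 4 for rBMP4, 0 to 15 for DMH1, 0 for SB431542 and 9 to 11 for mock against 0.4% DMSO, and for the BMP pathway genes 3 to 4, 3, 0 to 3, 0 to 1 and 3 to 4 in the same order of comparisons. With 1 library left in a group, that library is assumed to vary like the other groups. The count for rActivin A against mock is not a result, since the rule chose the 21 genes on these libraries.

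Whether replicate numbers pair the libraries is not known. Replicate differences of the conditions correlated at -0.0544 to 0.0766, which shows no sign of pairing but cannot exclude it. With the replicate number as a block, 21, 4, 5, 1 and 11 of the genes were called in the same order, and 0 BMP pathway genes for DMH1. Among the 21 genes no called fold change turned direction under any alternative. With rBMP4, 46 of 48 repeats of the called genes stayed past the threshold, and the 2 that did not were those with the fold minimum. OFUSG00668 joined the 4 calls, making 5, without the filter, in the fit of only 4 libraries and, added after seeing the data, without the rActivin A libraries. The cause of the other losses was not tested. Precision is limited by 2 libraries per condition and by the 4 to 752 counts behind these genes in rActivin A replicate 2.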
